A study of Mus musculus with 2 samples.

Results

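The mouse genes whose symbol is Clec followed by a digit encode C-type lectins and related proteins, and 33 protein-coding genes of this name were found among 21900 coding genes of the RefSeq table for GRCm38.p6 (mm10). They were set against the 3153 peaks of an anti-FLAG chromatin immunoprecipitation for HLF (hepatic leukemia factor), which binds DNA through a PAR bZIP domain. Each peak, taken at its centre, was given to the coding gene that held it, or else to the gene with the nearest end within 100 kb. By this rule 10 peaks went to 9 of the 33 genes (27.3%), beside 11.1% of all coding genes given a peak. The family was picked by symbol with the peak list already known, so its counts are a description without a test.

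The study compared 2 libraries of wild-type mouse LSK cells, the marrow fraction that lacks lineage markers and carries Sca-1 and c-Kit. In one arm the cells received the retrovirus pMX-3xFLAG-Hlf/Hlf-IRES-GFP, and in the other the control virus pMX-GFP. Both arms were kept for 5 days in OP9 medium with SCF, IL-7, Flt3L and IL-3, and precipitated with the same FLAG antibody. The bound factor was therefore a tagged protein made from a virus, and not HLF at its own level. The genotype labels are FLAG-HLF and GFP-ctrl, and neither sex nor age of the mice was used here. There was 1 library per arm, only the FLAG-HLF peak list was analysed, and no value below has a replicate check. The list gives positions without heights or read counts, so depth is unknown and the strength of one peak cannot be set against another. Expression was not measured, and the cell type could not be checked against its markers.

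C-type lectins fold into a domain that in the founding members binds sugars with the help of calcium, and in many leukocyte members binds proteins or lipids instead. On myeloid cells they serve as receptors for fungi, mycobacteria and dying cells. Some signal through an ITAM, either their own or that of a partner chain, to the kinase Syk and the adaptor CARD9, and others carry an ITIM that recruits phosphatases. A further group, the Clr proteins of the Clec2 genes, acts as ligands for receptors of natural killer cells. Many of these genes lie together in the natural killer gene complex.

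The peak centre nearest to a transcription start in the family was that of Clec12a (gene ID 232413), which encodes an inhibitory ITIM receptor of granulocytes, monocytes and dendritic cells. The gene table places it at chr6:129349783-129365303. Its peak, chr6:129349909-129350308, ran from 335 bases upstream to 64 bases downstream of the transcription start in the RefSeq promoter table. The centre was 0.136 kb upstream of that start, on the plus strand. The gene bounds of the RefSeq table begin further upstream, so the centre counted as inside, 0.325 kb from the lower end. The promoter table gives 300 bases per start site, 250 before and 50 after the start, and at Clec12a this window lay wholly inside the peak. Of the 29 windows of 26 Clec genes it was the only one that touched any peak, beside 177 of 21263 windows of all coding genes. Its part before the start is shown because it is the one stretch of peak sequence at hand for the family (chr6:129349994-129350243, GRCm38.p6, plus strand, 5′ to 3′). Capitals mark a C/EBP palindrome and a PAR bZIP word.
Clec12a: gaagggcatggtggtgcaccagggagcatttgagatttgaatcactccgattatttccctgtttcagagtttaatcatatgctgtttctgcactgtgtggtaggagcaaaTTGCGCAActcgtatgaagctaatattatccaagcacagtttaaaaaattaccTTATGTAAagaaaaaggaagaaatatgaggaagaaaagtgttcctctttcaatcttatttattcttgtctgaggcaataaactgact

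The palindrome TTGCGCAA began at position -140 from the start (-1 is the base before the start) and its middle was 1 base from the peak centre. C/EBP factors, among them the drivers of granulocyte and monocyte genes, bind this word. The word TTATGTAA, a form of the site bound by HLF, its PAR bZIP relatives and the repressor NFIL3, began at position -87, and its middle was 52 bases from the peak centre. The words were 45 bases apart. Both strands were searched, and TTACATAA is TTATGTAA read on the other strand.

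These words were uncommon in promoters. TTATGTAA stood in 190 of 21263 windows of coding genes (0.894%) and TTGCGCAA in 47 (0.221%). Among the 49 windows that lay wholly inside a peak of the list, including that of Clec12a, 4 held TTATGTAA (8.16%) and 2 held TTGCGCAA (4.08%). The full PAR bZIP palindrome TTACGTAA was in 1 of the 49 windows and in 29 of all 21263, and in no Clec window. Clec12a was the only Clec gene with any of these 3 words among the 26 with a window.

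A looser C/EBP word, TTGCNNAA (TTNNGCAA on the other strand), which contains the palindrome, was in 21 of the 49 windows inside peaks (42.9%) and in 10.2% of all windows. Its middle lay within 50 bases of the peak centre for 20 of 25 copies, while 33.3% of the bases of those windows lay that close. For the PAR bZIP words TTACGTAA and TTATGTAA together it was 3 of 5 copies, too few to set against the C/EBP word. In the Clec family TTGCNNAA stood in the windows of Clec12a, Clec4e, Clec2i, Clec11a and Clec16a, and of these 5 only the Clec12a window was in a peak. One copy per gene is given with 10 bases on each side, on the strand of the gene, to set the site in the peak beside those outside (another copy in the Clec16a window lies at its edge). Capitals mark the word.
Clec12a: taggagcaaaTTGCGCAActcgtatgaa
Clec4e: ctccttgtccTTGTGCAAgagaggaaat
Clec2i: ggctcattgcTTCAGCAAgaagatagtg
Clec11a: gtgcttgtacTTGCAAAAgggaggaaag
Clec16a: ttactccgatTTCAGCAAaccgtttccg

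The Clec12a window also held TGTGGT, the word of RUNX factors (15.0% of all windows), and TGANTCA, the word of AP-1 (6.99%). In other Clec windows, none of which touched a peak, TGTGGT was found at Clec4a1, Clec4a3, Clec4b1, Clec4e and Clec5a, and TGANTCA at Clec4a2, Clec2e, Clec2g, Clec2h and Clec18a. AGATAA, the GATA word, was found at Clec1b alone, in 9.65% of all windows. The PU.1 word GAGGAAGT (3.13% of all windows) and the E-box CACGTG (7.84%) were in no Clec window. In the 49 windows inside peaks the shares were 18.4% for TGTGGT, 12.2% for TGANTCA, 8.16% for AGATAA, 6.12% for GAGGAAGT and 12.2% for CACGTG. Copies within 50 bases of the peak centre were 5 of 10 for TGTGGT, 3 of 6 for CACGTG and 2 of 6 for TGANTCA. They were 1 of 4 for AGATAA and 0 of 3 for GAGGAAGT. These counts are small and were not tested. A match is a run of letters and does not show that a factor was bound there. Sequence under the other 9 peaks of the family was not used here.

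Of the receptors that signal through Syk, Clec7a and Clec4d had a peak. Clec7a (gene ID 56644; chr6:129461591-129472785) encodes Dectin-1, the beta-glucan receptor of myeloid cells, which carries its own hemITAM. Its peak, chr6:129471383-129471782, was centred inside the gene, 1.20 kb downstream of the start. The noncoding gene Gm45969 also held this centre. Clec4d (gene ID 17474; chr6:123262107-123275268) encodes MCL, which pairs with Mincle to bind mycobacterial glycolipid. Its peak, chr6:123260127-123260526, lay upstream, with its centre 1.78 kb before the start and 13.3 kb from Clec4n. The other Syk-coupled receptors had none by the rule. The closest peak was 13.3 kb from Clec4n, which encodes Dectin-2, and 21.5 kb from Clec4e, which encodes Mincle. For both it was the peak given to Clec4d. It was 46.8 kb away for Clec9a, the receptor of dendritic cells for actin exposed on dead cells, and 47.2 kb for Clec1b, the podoplanin receptor of platelets. Clec5a, which signals through the DAP12 chain, was 577.9 kb from any peak.

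Among the genes of the DCIR group, which is taken here by family and not by signalling, Clec4a2 had a peak. Clec4a2 (gene ID 26888; chr6:123122690-123143999) encodes DCIR, an ITIM receptor of dendritic and other myeloid cells. Its peak, chr6:123123037-123123436, was centred 0.546 kb downstream of the start, inside the gene. Its relatives had none. The closest peak was 49.6 kb from Clec4b2, 51.7 kb from Clec4b1 and 98.8 kb from Clec4a4, and in each case it was that of Clec4a2. Clec4a1 and Clec4a3 were farther, at 139.4 and 153.4 kb. Clec12b, an inhibitory relative of Clec12a, was 25.4 kb from the Clec12a peak.

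Peaks also lay at the Clec2 genes. Clec2d (gene ID 93694; chr6:129180615-129186535) encodes Clr-b, the ligand of the inhibitory natural killer receptor made from Klrb1b, and was the only Clec gene with 2 peaks. One, chr6:129181717-129182116, was centred inside the gene, 1.30 kb downstream of the start. The other, chr6:129171661-129172060, was centred 8.76 kb upstream, and the centres were 10.1 kb apart. Clec2e (gene ID 232409; chr6:129091816-129100903), which encodes Clr-a, had a peak centred inside, 3.22 kb downstream of its start (chr6:129097489-129097888). Clec2m (gene ID 381816; chr6:129322165-129331807) had a peak centred 2.07 kb upstream of its start (chr6:129333651-129334050), and this centre was 15.9 kb from Clec12a. The remaining Clec2 genes of the complex had none, with the closest peak 28.7 kb from Clec2f, 48.6 kb from Clec2i, 65.3 kb from Clec2g and 158.9 kb from Clec2h. Clec2l, which lies elsewhere on the chromosome, was 114.5 kb from a peak.

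The 2 remaining peaks were at genes outside these groups and far from a start. Clec4g (gene ID 75863; chr8:3707066-3720695) encodes LSECtin, a receptor of liver sinusoidal endothelium. Its peak, chr8:3711770-3712169, was centred inside the gene, 8.68 kb downstream of the start. Clec16a (gene ID 74374; chr16:10545309-10744878) shares the family's name but is known as a regulator of endosomes and mitophagy. Its peak, chr16:10676658-10677057, was centred inside, 131.5 kb downstream of the start and 68.0 kb from the nearer end. Noncoding genes, Gm16553 and Gm15558, also held the centres given to Clec4g and Clec16a. Exons and introns were not told apart for any of the peaks.

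**Figure D1:**
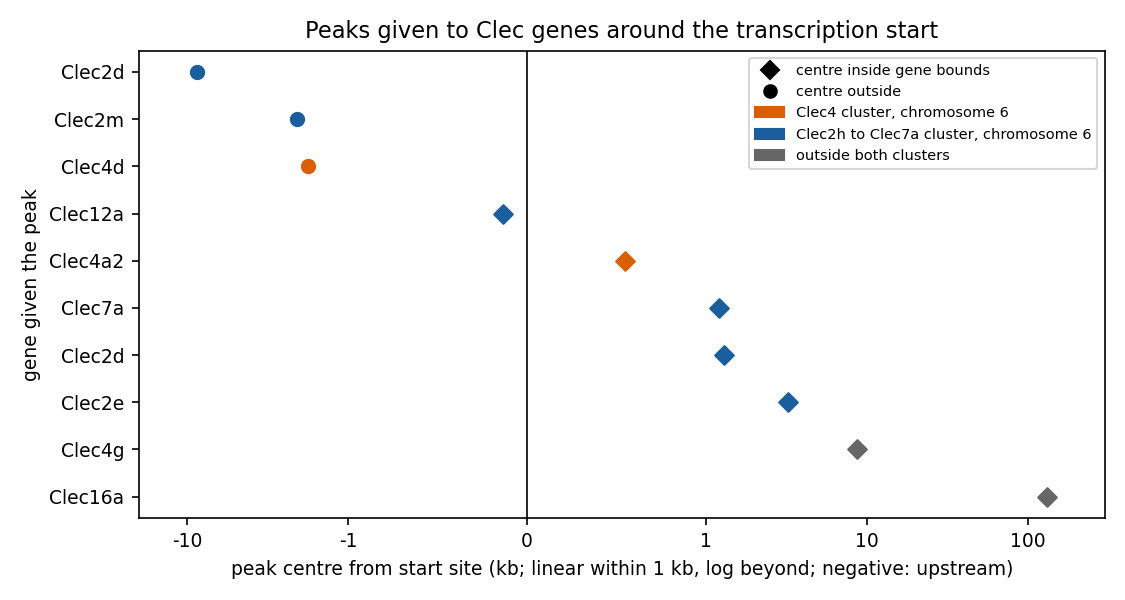
Position of the 10 peaks given to Clec genes, as the distance of the peak centre from the transcription start in kb (linear within 1 kb, logarithmic beyond, upstream negative), 1 row per peak. The peaks of Clec12a and Clec4a2 lie within 1 kb of a start, those of Clec7a and Clec4d and the nearer one of Clec2d within 2 kb, and those of Clec4g and Clec16a far downstream.

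By start site, 2 of the 26 Clec genes in the promoter table had a peak centre within 1 kb, 5 within 2 kb and 7 within 5 kb. For all 17492 coding genes in that table the shares were 1.72% within 1 kb, 2.5% within 2 kb and 4.05% within 5 kb, against 7.69%, 19.2% and 26.9% of the Clec genes. The 7 genes were Clec12a, Clec4a2, Clec7a, Clec2d, Clec4d, Clec2m and Clec2e, and all of them lie in one of 2 clusters on chromosome 6. The Clec genes without an entry in that table were Clec4a4, Clec4n, Clec2f, Clec1a, Clec3a, Clec3b and Clec10a.

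With gene bounds in place of start sites, 9 of 33 Clec genes (27.3%) were given a peak, beside 11.1% of all 21900 coding genes. A centre lay inside 7 of the 33 (21.2%), beside 6.73% of all. Having 2 or more peaks was true of 1 of 33 and of 2.06% of all. The median length of the Clec genes was 13.2 kb against 17.1 kb for all coding genes, and over all genes the long ones more often had a peak. Among genes under 10 kb, 3 of 9 Clec genes had a peak, beside 4.22% of 7938 coding genes. From 10 to 30 kb it was 5 of 19, beside 9.28% of 6456, and at 30 kb or more 1 of 5, beside 19.8% of 7506. Neighbouring Clec genes share their surroundings, so they are not independent of each other.

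**Figure D2:**
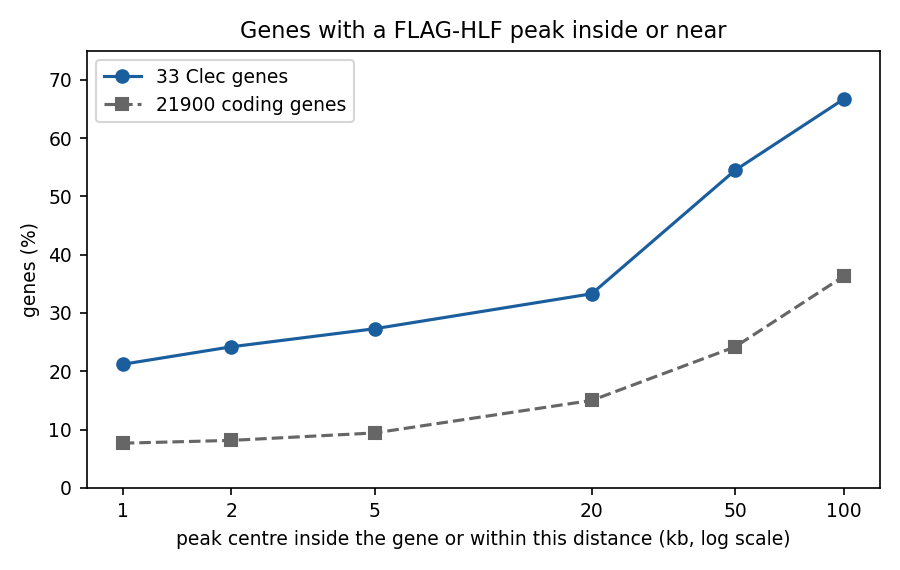
Share of genes (%) with a peak centre inside the gene or within the distance on the x axis (kb, logarithmic), for the 33 Clec genes and for all 21900 coding genes. A peak counts here for every gene it is near. The Clec line runs from 21.2% at 1 kb to 66.7% at 100 kb, and the line for all genes from 7.66% to 36.3%.

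The median distance from a Clec gene to its closest peak was 48.6 kb, against 180.6 kb for all coding genes, counting a centre inside as 0. Within 2 kb the share was 24.2% of the Clec genes beside 8.14% of all, and within 5 kb it was 27.3% beside 9.42%. Within 20 kb it was 33.3% of the Clec genes beside 15.0% of all, and within 50 kb it was 54.5% beside 24.2%. Outside the clusters, each Clec gene either held a peak centre or lay at least 93.4 kb from one. The Clec genes given a peak without holding a centre were Clec4d at 1.78 kb and Clec2m at 2.04 kb. The nearest ones not given a peak were Clec4n at 13.3 kb and Clec1a at 19.6 kb. These lay within the limit of 100 kb, but their closest peaks went to Clec4d and Clec7a.

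**Figure D3:**
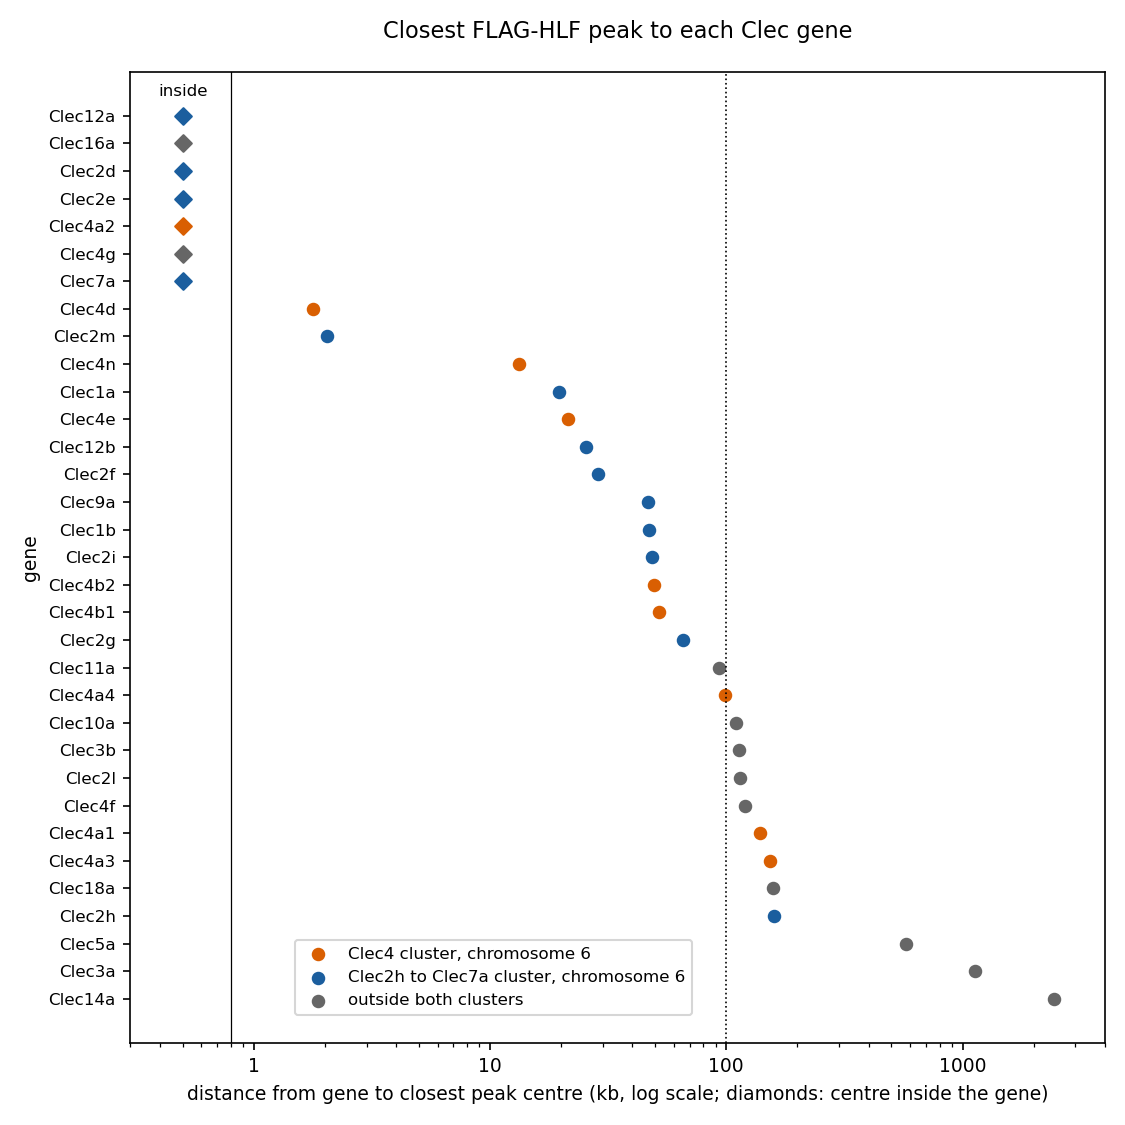
Distance in kb (logarithmic axis) from each of the 33 Clec genes to the closest peak centre. Diamonds at the left are the 7 genes that hold a centre, colours give the clusters, and the dotted line marks 100 kb. Genes outside the clusters hold a centre (Clec4g and Clec16a) or lie 93.4 kb or more from one.

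Runs of Clec genes with less than 500 kb between neighbours formed 2 clusters on chromosome 6, and the other 11 genes stood alone. The larger one, from Clec2h to Clec7a (chr6:128662385-129472785), spans 0.810 Mb of the natural killer gene complex and holds 13 Clec genes, of which 5 had 6 peaks. In all it contained 11 peaks, or 13.6 per Mb, where chromosome 6 as a whole had 1.35 per Mb and the autosomes 1.29. The median distance from its Clec genes to a peak was 25.4 kb. Peaks were uneven along it. None of Clec12b, Clec1b, Clec9a and Clec1a, which lie between the peaks of Clec12a and Clec7a, had one, and these peaks were 121.5 kb apart. The bounds of Clec12b contain Clec1b and Clec9a and overlap Clec1a. The peaks given to Clec2m and Clec12a were 16.3 kb apart.

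There were 6 other coding genes within that cluster, and 4 of them took the other 5 peaks. With a peak were thus 4 of these 6 and 5 of the 13 Clec genes there, beside 11.1% of all coding genes. Peaks in this cluster were not particular to its Clec genes. Klrb1f, of the NKR-P1 receptor family, held 1, 4.16 kb from an end. Klrb1b, whose product binds the Clec2d product, had 1 peak 10.0 kb away (chr6:128836116-128836515), and BC035044 had the next, 9.05 kb away. Cd69, an early activation antigen of leukocytes and itself a C-type lectin gene, had 2, at 33.3 and 35.6 kb. Klrb1 and Klrb1c had none.

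**Figure D4:**
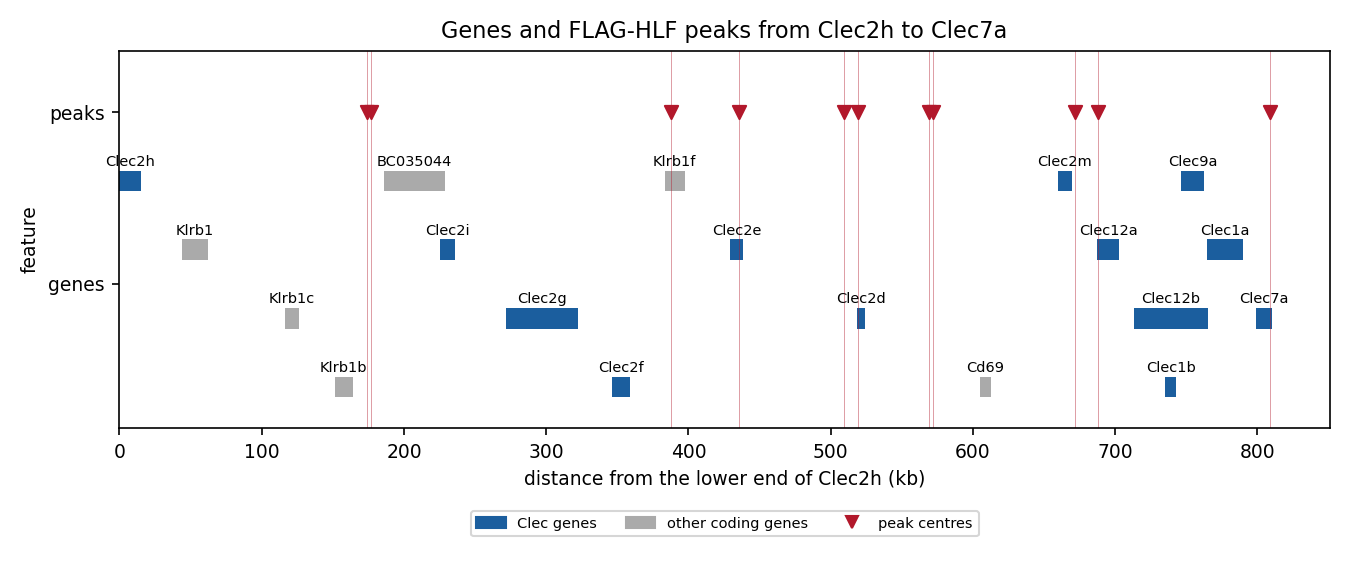
Map of the cluster from Clec2h to Clec7a, with distance from the lower end of Clec2h in kb on the x axis. Blue bars are Clec genes, grey bars other coding genes (rows only separate the names), and triangles the 11 peak centres. The first peak lies 173.9 kb into the cluster, and no peak lies between those of Clec12a and Clec7a.

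The smaller cluster, from Clec4a1 to Clec4e (chr6:122921848-123289871), spans 0.368 Mb and holds 9 Clec genes and no other coding gene. It contained 2 peaks, those of Clec4a2 and Clec4d, 137.1 kb apart, or 5.43 per Mb. The median distance from its genes to a peak was 49.6 kb.

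**Figure D5:**
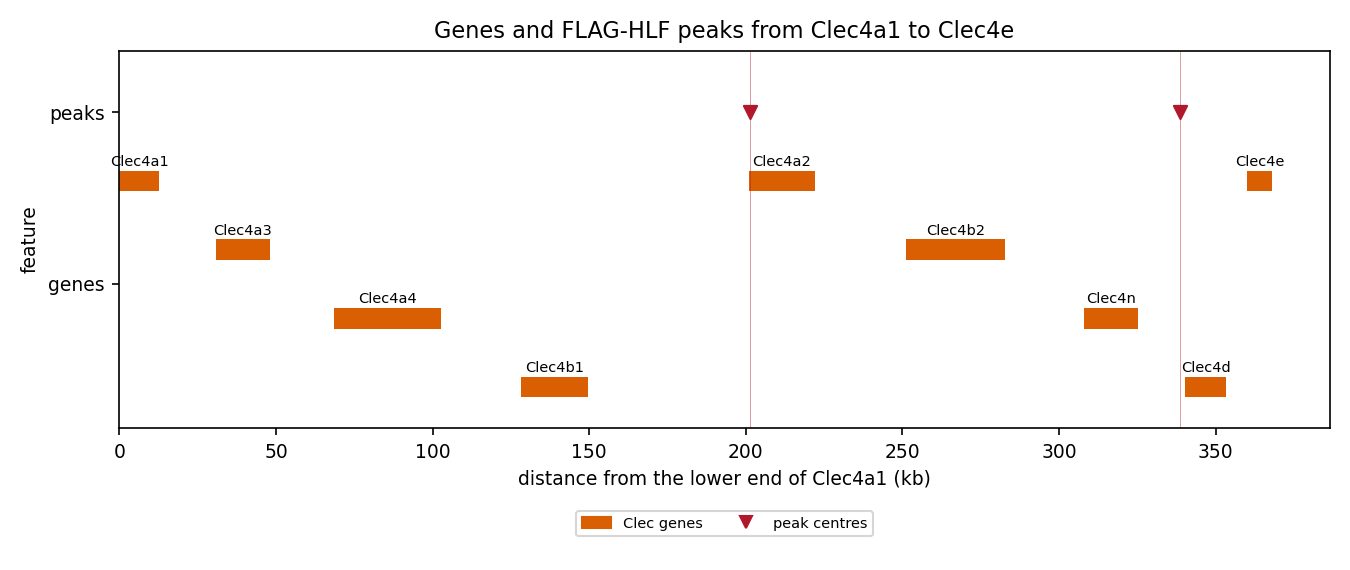
Map of the cluster from Clec4a1 to Clec4e, with distance from the lower end of Clec4a1 in kb on the x axis, Clec genes as bars and the 2 peak centres as triangles. The peaks lie 201.4 and 338.5 kb into the cluster, inside Clec4a2 and upstream of Clec4d, and the genes from Clec4a1 to Clec4b1 have none.

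Of the 11 genes outside the clusters, 2 had a peak, Clec4g and Clec16a, beside 11.1% of all coding genes. The median distance was 114.5 kb. Clec11a, a secreted growth factor of blood and bone progenitors, was 93.4 kb from a peak, which went to another gene. Clec10a, a galactose receptor of macrophages, was 109.8 kb away, Clec3b, which encodes tetranectin, 112.7 kb, Clec4f, a receptor of Kupffer cells, 120.0 kb, and Clec18a 157.1 kb. Clec3a, a cartilage gene, was 1128 kb away, and Clec14a, an endothelial gene, 2445 kb.

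Of 65 listed genes with a C-type lectin domain and another name, 5 had a peak (7.69%), beside the 11.1% of all coding genes. They were Cd69, Klrb1b and Klrb1f of the natural killer complex, Cd93, and Selp, which encodes an adhesion receptor of platelets and endothelium. Cd93, an antigen of early progenitors and endothelium, had 2 peaks at 8.01 and 45.5 kb. The peak of Selp was centred inside the gene, 7.16 kb from an end. Of all 29 Klr genes of chromosome 6, which encode natural killer receptors, Klrb1b and Klrb1f were the 2 with a peak. The difference between the Clec genes and these lists was not tested.

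Genes of the signalling route below Clec receptors were given peaks in 23 of 49 cases (46.9%), beside 11.1% of all coding genes and 19.8% of those of 30 kb or longer. They were long, with a median of 43.0 kb, and the list was drawn up with peaks at some of them, such as Syk and Blnk, already known. Fcer1g, which encodes the Fc receptor gamma chain that carries the ITAM for Mincle, MCL and Dectin-2, had 2 peaks inside, 1.17 and 1.91 kb downstream of its start (chr1:171232985-171233384 and chr1:171232237-171232636). Card9, the adaptor between Syk and NF-kB, had 1 centred 0.755 kb downstream of its start (chr2:26359955-26360354). Among kinases, Lyn, a SRC kinase, had 4 peaks, Syk 3, and Prkcd, the kinase that activates CARD9, 2 peaks 4.97 and 7.52 kb upstream of its start. Further intermediates with a peak were Plcg1, Vav1, Vav3, Lcp2, Grap2, Blnk, Pik3ap1 and Cblb. On the inhibitory side, Inpp5d, which encodes the phosphatase SHIP1, had 1 peak 4.64 kb downstream of its start, and Ptpn11, which encodes SHP-2, had 2 outside the gene, while Ptpn6 had none. Tlr2, a partner receptor, had 1 peak.

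At the far end of the route, Rel, Rela and Nfkb1, which encode subunits of NF-kB, had 1 peak each. Nlrp3, the inflammasome sensor, had 2, centred 0.078 kb upstream and 0.848 kb downstream of starts. The cytokine genes Il1b, Il6 and Il10 had 3, 2 and 1. Tyrobp, the DAP12 chain used by the Clec5a product, had none. Of 13 genes for ligands and partners of Clec receptors, 5 had a peak (38.5%), beside 11.1% of all coding genes. They were Klrb1b, Klrb1f, Actb, Itga11 and Anxa1, and the peaks of the last 3 lay outside the gene, at 12.9 kb or more. Klrb1b and Klrb1f, with the same peaks, were also counted among the 65 other lectin genes, so these lists overlap. Pdpn, the ligand of the Clec1b product, had none.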

How the data were processed

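The assay was ChIP-seq with a FLAG antibody on mouse LSK cells carrying a FLAG-HLF or a GFP virus, with 1 library for each. Per the submitters' processing notes the tools were Bowtie2, bedtools and MACS2 on mm10; their roles, versions, peak threshold and use of the control library were not given in the sources used here. Positions alone fill the 3 columns of the deposited peak list, with no score, and every interval is 400 bases wide.

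Gene bounds came from the RefSeq table of GRCm38.p6, and start sites, strand and 300-base promoter windows from its promoter table, which held 26 of the 33 genes. A peak centre (start plus 200) went to the coding gene holding it, the nearest end deciding between several, else to the nearest end within 100 kb. Motifs were searched on both strands. No genome sequence was used, and the control list was not analysed here. Every Clec gene was named, and listed genes where they had a peak. One listed gene was left out and is not reported here. The members, lists and words were chosen with earlier results of these data known. The Klr count, the length classes, the start-site distances and the distances of words from peak centres were added after their data were seen. Peak assignment and word search were tested on simulated data. Python 3.11.15, numpy 2.4.6, pandas 2.3.3 and matplotlib 3.10.9 were used.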

Additional observations from a re-analysis of the deposited data

How the results depend on the processing

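Of 21 alternative values for 4 results, 15 stayed within 1.5 times the reported value. The 10 peaks and 9 genes were the same in number with the nearest gene end in place of the holding gene, with limits of 50 kb, 20 kb or none, and with any overlap of the interval. Limits of 50 and 20 kb could not change them, as 7 centres lay inside a gene and the 3 outside were at most 8.76 kb from one. When genes of every biotype took peaks, the counts were 7 peaks at 7 genes (beside 8.78% of all coding genes), as the upstream Clec2d peak went to Gm26160 and those of Clec4g and Clec16a to noncoding genes that hold them. With each peak counted for every coding gene within 100 kb, there were 48 pairs of peak and gene at 22 Clec genes, beside 36.3% of all coding genes. The first 1576 lines of the list gave 6 peaks at 6 genes, beside 6.11% of all coding genes, and the last 1577 gave 4 peaks at 4, beside 6.15%, as fewer peaks were used. In an alternative chosen after seeing the data, the median distance to a peak was 65.3 kb in the first lines and 112.7 kb in the last. The PAR bZIP words were at 1 Clec gene with or without the bases after the start, which could not differ, as the Clec12a word lies before the start. No paired analysis was possible because there was 1 library per arm and no test. The unknown depth limits every absence: a gene without a peak may hold one below the authors' threshold.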
